A study of Homo sapiens with 8 samples.

Results

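TRIM28, SETDB1, ATF7IP, TASOR, MPHOSPH8, PPHLN1, MORC2, EHMT2, DNMT1 and UHRF1, a set of 10 genes listed by name as repressors of endogenous retroviruses, were followed in the RNA of human embryonic stem cells (hESCs). Of these 10 genes, 9 were found among the 57773 genes counted, by Ensembl identifiers paired with symbols. TASOR is named FAM208A in older annotation. All 9 were among the 23474 genes with enough counts to be tested. UHRF1 was not analysed here, because no counted identifier was paired with that symbol. The H9 line, an established hESC line grown in mTesR1 medium, was sequenced after depletion of rRNA in 4 conditions with 2 replicates each. WT cells were untreated and carried the wild type CHD7 gene with an HA tag (CHD7-HA). CHD7 knockout cells were untreated and CHD7 -/-. HERVH knockdown cells were the CHD7-HA wild type treated for 24 h with LNA-GapmeRs, antisense oligonucleotides that direct cleavage of a matching RNA. HERVH element deleted cells were untreated and lacked a single HERVH element on chromosome 2. The edited lines were made with CRISPR-Cas9 and screened as clones, and the labels do not say whether the replicates of a line came from separate clones or cultures, so the p-values measure only the spread between these samples. The WT libraries were labelled untreated, so in the comparison with the knockdown the loss of HERVH RNA and the transfection itself cannot be told apart.

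HERVH is a family of endogenous retroviruses whose RNA is abundant in human pluripotent cells, while most other retroviral copies are kept silent there. In the best known route, KRAB zinc finger proteins bind a retroviral sequence and recruit TRIM28, which brings in SETDB1, an enzyme that trimethylates lysine 9 of histone H3. ATF7IP binds SETDB1 and protects it in the nucleus, the HUSH complex of TASOR, MPHOSPH8 and PPHLN1 works with SETDB1 and the ATPase MORC2 on newly integrated and transcribed elements, EHMT2 dimethylates the same lysine, and DNMT1 with UHRF1 copies DNA methylation after replication.

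The sequences of the 3 LNA-GapmeRs are shown because they were the agent of the knockdown and because a near match lies in a gene of the set. They are written 5′ to 3′ as the oligonucleotides.
SHHERVH_12: atgtggagtgggtagc
SHHERVH_3: ggaagatttgggacga
SHHERVH_4: attgggacctagctcg
On GRCh37, exact sites for them numbered 621, 246 and 244, in this order. Within the spans of the 9 genes and on the strand that is transcribed, a single site with up to 2 mismatches was found. It lies in TRIM28, in coding sequence of an exon at chr19:59061379-59061394 (+ strand), and differs from the exact target of SHHERVH_12 at the 2 bases in capitals.
target of SHHERVH_12: gctacccactccacat
TRIM28 site: gctaccGactccacCt
Sites with up to 2 mismatches were also counted anywhere in the span of a gene, introns included, on the transcribed strand. They were held by 1.43% (SHHERVH_12), 1.15% (SHHERVH_3) and 0.475% (SHHERVH_4) of the tested genes that could be placed on the genome. The share of genes with a site in coding sequence was not determined. TRIM28 RNA was not below the WT range in either knockdown library, as given with its values, and cleavage at this site was not tested.

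Reads counted on genes ranged from 14802049 to 23156445 per library, and 3 counts corresponded to 0.128 to 0.219 CPM (counts scaled to library size), a limit that covers counting error only. The targeted gene CHD7 stood at 651.0 and 649.5 CPM in the WT libraries and at 197.3 and 197.2 CPM in the CHD7 knockout libraries. Replicates of the 9 genes had a median SD of 0.115 on the log2 CPM scale in WT and 0.115 in CHD7 knockout cells. It was 0.212 in HERVH knockdown and 0.0591 in HERVH element deleted cells. Over the 12704 genes with a mean log2 CPM above 2 the medians were 0.125, 0.111, 0.254 and 0.0821, in this order. The 7 markers of pluripotent cells summed to between 4418 and 5203 CPM in every library and the 7 markers of differentiated cells to between 2.54 and 5.17 CPM. Of 6 fibroblast markers, LUM and DCN were at or under 3 counts in all libraries, and the sum of the 6 was 417.6 to 564.5 CPM in WT, 462.4 to 515.1 CPM in CHD7 knockout, 433.8 to 673.5 CPM in HERVH knockdown and 358.4 to 424.5 CPM in HERVH element deleted cells, nearly all of it from COL1A1, COL1A2 and THY1, and its part in the results was not tested. Fewer cells with an RNA and less of that RNA per cell cannot be told apart in these bulk samples.

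In WT cells TRIM28 was by far the most abundant factor per length of exon, at 221.4 and 263.7 RPKM (CPM divided by the summed exon length in kilobases). EHMT2 followed at 25.9 and 29.1 RPKM, DNMT1 at 23.8 and 25.4 RPKM and ATF7IP at 20.7 and 26.5 RPKM, and the ranges of DNMT1 and ATF7IP overlapped. TASOR had 13.2 and 13.8 RPKM and MORC2 had 12.0 and 12.9 RPKM. The lowest levels were those of MPHOSPH8 (7.99 and 9.89 RPKM), SETDB1 (6.70 and 7.50 RPKM) and PPHLN1 (4.93 and 5.01 RPKM). All neighbours in this order other than DNMT1 and ATF7IP had WT values that did not overlap, although only 3 of the 9 genes kept their rank when the length of the longest transcript was used instead of all exons. In CHD7 knockout cells SETDB1 stood at 11.8 and 12.0 RPKM, above MPHOSPH8 at 9.60 and 10.5 RPKM. Per length of the longest transcript, SETDB1 was above MPHOSPH8 in WT as well (mean 11.8 against 10.35 RPKM).

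**Figure D1:**
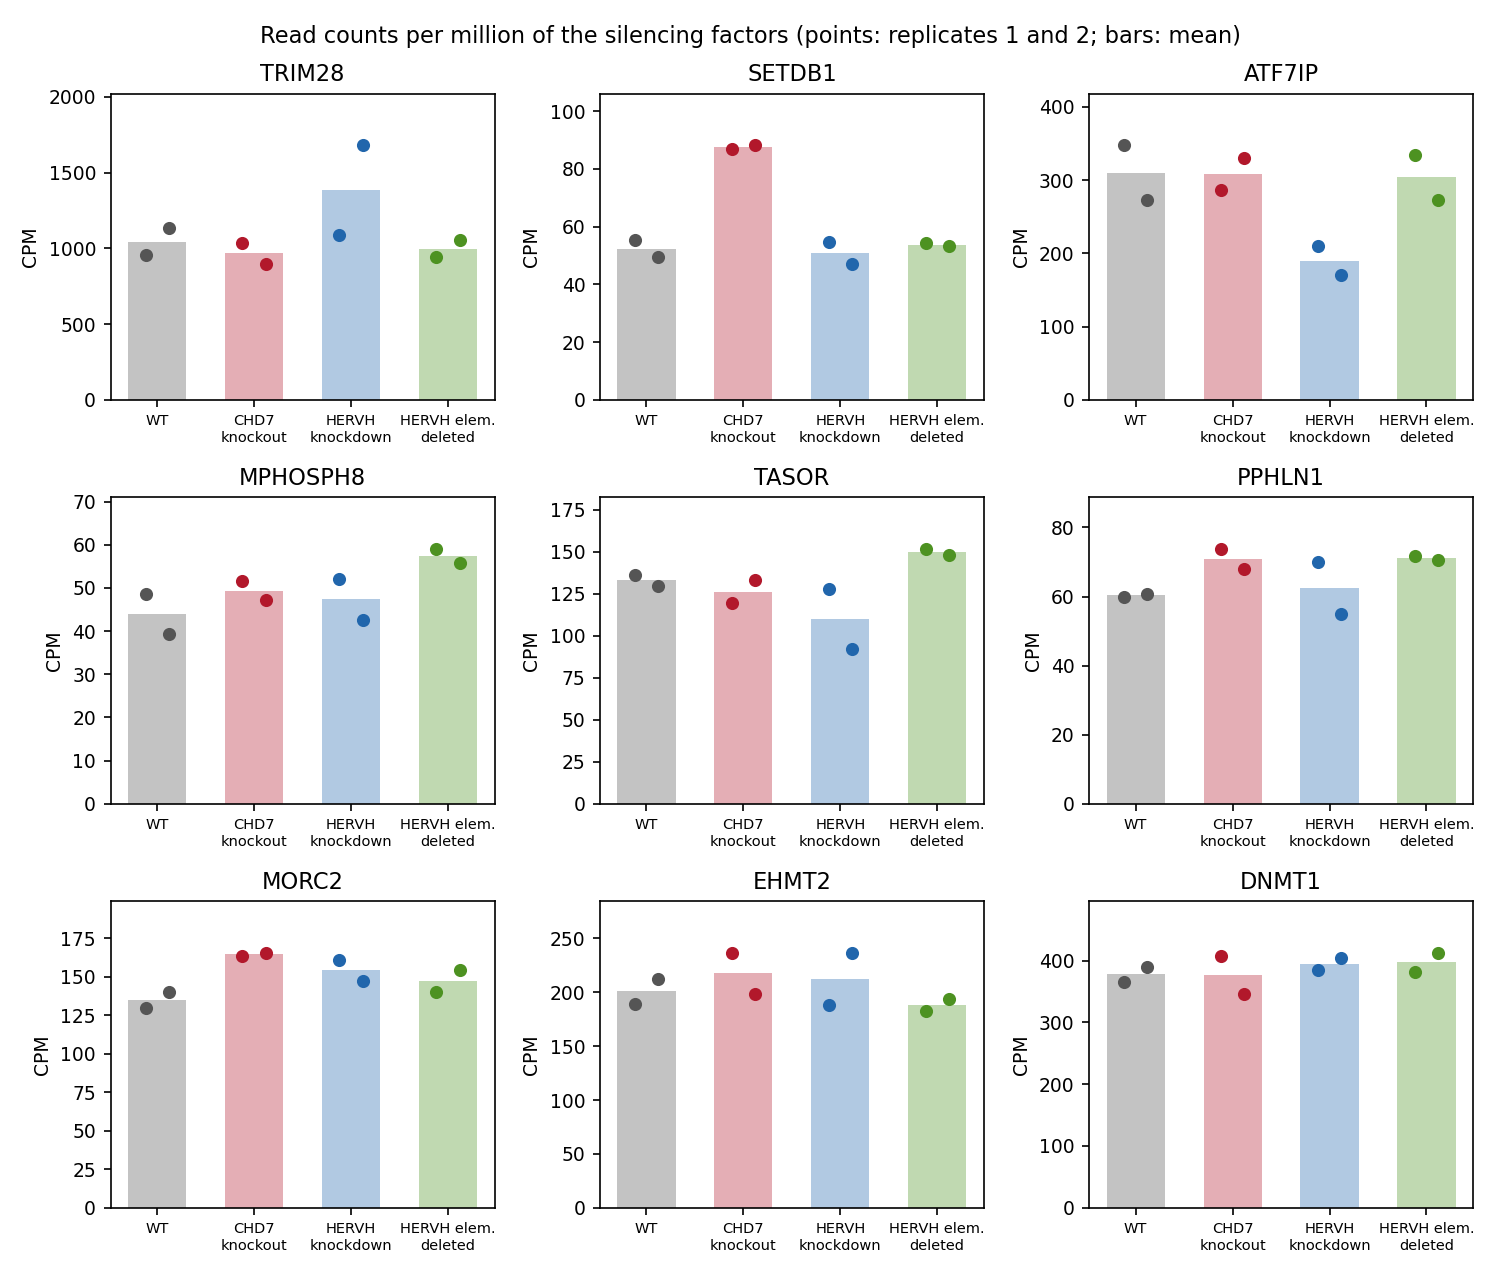
Normalized read counts (CPM, linear axes from 0, a separate axis for each gene) of the 9 silencing factors by condition, with points for the 2 replicates and bars for their mean. SETDB1 lay at 87.0 and 88.4 CPM in CHD7 knockout cells against 47.2 to 55.3 CPM in the other 6 libraries, and ATF7IP lay at 210 and 170 CPM in HERVH knockdown cells against 272 to 349 CPM in the other 6.

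TRIM28 (ENSG00000130726, chr19:59055431-59062089, + strand), the corepressor that KRAB zinc finger proteins recruit, had 953.4 and 1135 CPM in WT, 1035 and 899.1 CPM in CHD7 knockout, 1085 and 1685 CPM in HERVH knockdown and 941.0 and 1056 CPM in HERVH element deleted cells. Knockdown replicate 2 was the highest library, and knockdown replicate 1 lay between the WT libraries. The log2 fold change against WT was 0.41 (95% interval 0.002 to 0.81) in the knockdown, with FDR = 0.261 (edgeR quasi-likelihood test), which does not pass the threshold of 0.05. It was -0.11 (-0.52 to 0.29) in CHD7 knockout cells and -0.06 (-0.47 to 0.34) in HERVH element deleted cells, and both of these values had the opposite sign after a correction for GC content (0.07 and 0.10). In the knockdown the GC correction gave a log2 fold change of 0.23 (FDR = 0.224 by edgeR). The value was 0.64 without knockdown replicate 1 and 0.05 without knockdown replicate 2.

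**Figure D2:**
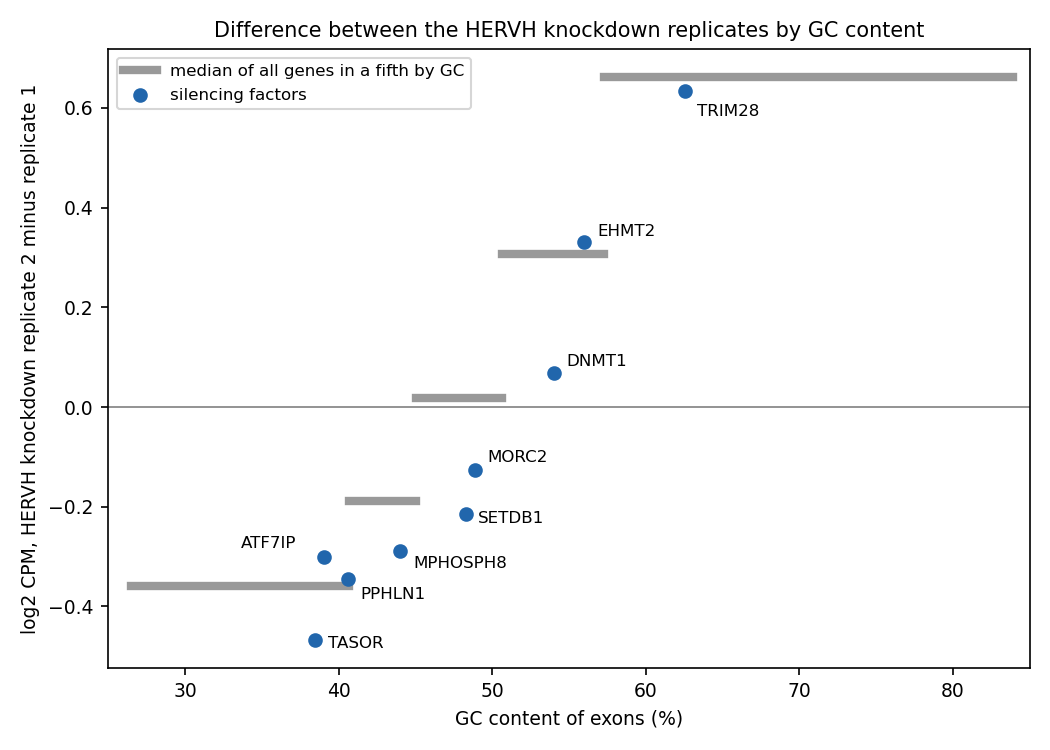
Difference in log2 CPM between HERVH knockdown replicate 2 and replicate 1 (y axis) against the GC content of exons in percent (x axis) for the 9 silencing factors (points). Grey bars are the medians of 5 classes of GC content, made of the genes with a mean log2 CPM above 2. TASOR (38.5% GC, -0.47) and TRIM28 (62.5% GC, 0.63) lie at the ends, while SETDB1 (-0.22) and MORC2 (-0.13) lie below 0 in a class whose median is 0.02.

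The knockdown replicates differed from each other by GC content. Their median difference in log2 CPM, replicate 2 minus replicate 1, went from -0.36 in the class of lowest GC content to 0.66 in the class of highest. The 5 classes were made of the genes with a mean log2 CPM above 2. TRIM28, at 62.5% GC the richest of the 9 genes, differed by 0.63 between these replicates, and EHMT2, at 56.0%, by 0.33. TASOR (38.5% GC) differed by -0.47, PPHLN1 (40.6%) by -0.34 and ATF7IP (39.0%) by -0.30. MPHOSPH8 (44.0%) differed by -0.29. SETDB1 (48.3%) and MORC2 (48.9%) differed by -0.22 and -0.13, where the median of their class was 0.02, and DNMT1 (54.0%) by 0.07, where it was 0.31. The WT replicates differed in the same direction in ATF7IP (-0.36), MPHOSPH8 (-0.31), TRIM28 (0.25), EHMT2 (0.17), SETDB1 (-0.16), DNMT1 (0.09) and TASOR (-0.07). PPHLN1 (0.02) and MORC2 (0.11) differed in the opposite direction in WT. How far GC content took part in each knockdown value was not tested beyond the GC correction.

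SETDB1 (ENSG00000143379, chr1:150898739-150937220, + strand), which trimethylates histone H3 at lysine 9, had 55.3 and 49.4 CPM in WT, 87.0 and 88.4 CPM in CHD7 knockout, 54.8 and 47.2 CPM in HERVH knockdown and 54.4 and 53.1 CPM in HERVH element deleted cells. Both CHD7 knockout libraries stood above all other libraries. SETDB1 was 1.67-fold higher in CHD7 knockout than in WT cells (87.7 ± 0.994 against 52.4 ± 4.16 CPM, SD, n = 2). The log2 fold change was 0.74 with SE 0.159 and FDR = 0.0313 (edgeR quasi-likelihood test). It was the 1 gene of the 9 that rose at an FDR below 0.05, where 1.19% of all genes tested rose, and 0 of the 9 fell, where 0.613% did. At this threshold the call was made in all 8 alternative fits on the full set of replicates. It was not made under an FDR below 0.01 with at least a 2-fold change. None of the 4 fits that left out a library made the call, and their log2 fold change was 0.66 to 0.86. Against WT its log2 fold change was -0.04 (-0.38 to 0.31) after HERVH knockdown and 0.04 (-0.30 to 0.38) after deletion of the HERVH element.

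The genes around SETDB1 were higher in CHD7 knockout cells as well. Of 123 expressed genes that start within 5 Mb of it, 122 had a log2 fold change above 0, and their median was 0.54, with 0.57 in replicate 1 and 0.48 in replicate 2. SETDB1 exceeded this median by 0.20, and 81.3% of these genes had a smaller change than SETDB1. Over the 553 expressed genes of chromosome 1 that start beyond 140 Mb the median was 0.52, and 88 of them were called higher, whereas the 727 genes before 140 Mb had a median of -0.06. The same 553 genes had medians of 0.02 in HERVH knockdown and -0.02 in HERVH element deleted cells. The change of SETDB1 in CHD7 knockout cells and that of the chromosome segment around it cannot be told apart in these libraries. SETDB1 also overlaps CERS2 on the opposite strand, and the strand setting of the counting is not given in the sources used here.

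**Figure D3:**
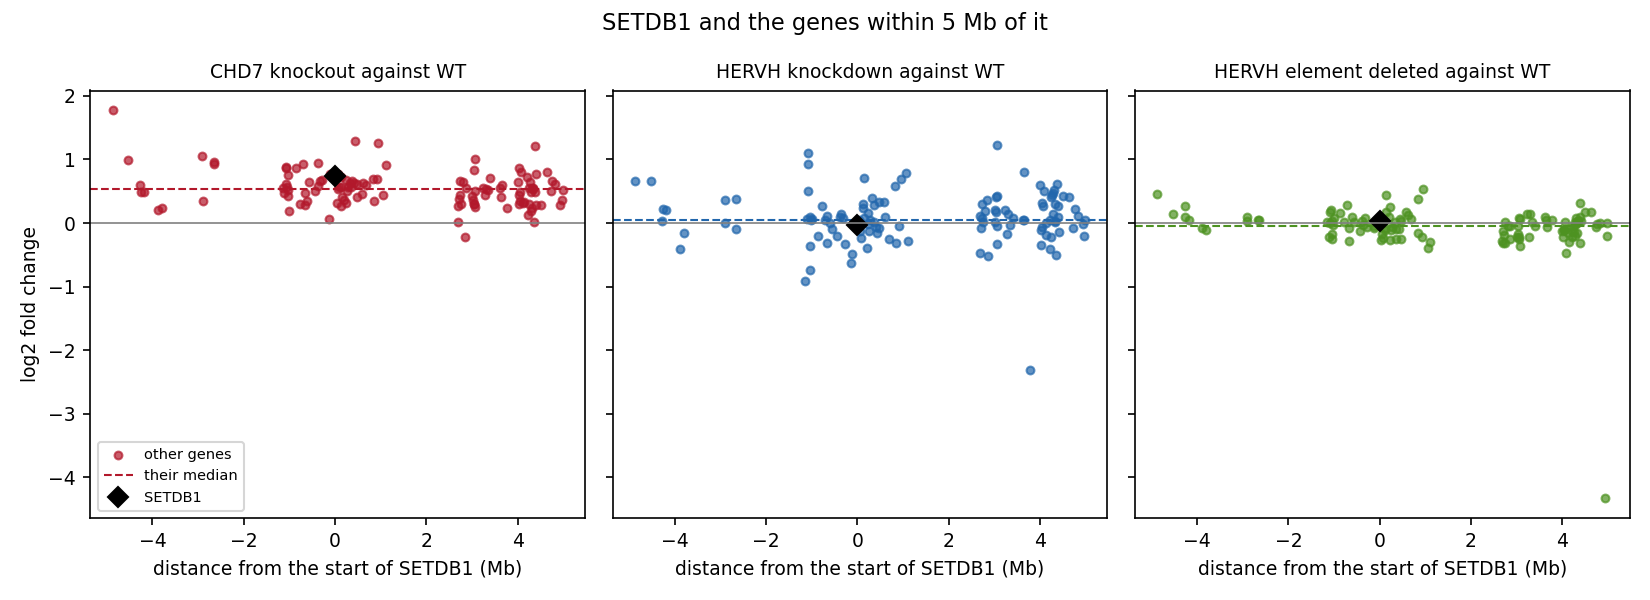
Log2 fold change against WT (y axis, shared) of expressed genes within 5 Mb of SETDB1, by the distance of their start from that of SETDB1 in Mb (x axis), with a panel for each condition. Circles are other genes, the dashed line is their median and the diamond is SETDB1; in CHD7 knockout cells 122 of 123 genes lay above 0 and their median was 0.54, against 0.05 and -0.04 in the other panels.

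ATF7IP (ENSG00000171681, chr12:14518610-14655865, + strand), the partner that protects SETDB1, had 348.5 and 272.1 CPM in WT, 286.7 and 329.9 CPM in CHD7 knockout, 209.6 and 170.3 CPM in HERVH knockdown and 334.3 and 273.4 CPM in HERVH element deleted cells. The 2 knockdown libraries were the lowest of the 8. The knockdown level of 190.0 ± 27.8 CPM (SD, n = 2) was 0.612 times the WT level of 310.3 ± 54.1 CPM (SD, n = 2). The log2 fold change was -0.71 (SE 0.174, 95% interval -1.08 to -0.33), with FDR = 0.0526 by edgeR, just outside the threshold. The GC correction (log2 fold change -0.56, FDR = 0.0101 by edgeR) and DESeq2 (-0.71, adjusted p = 0.0118) called ATF7IP. These settings called 2048 and 1260 of all genes, against 504 in the joint edgeR fit. ATF7IP was also called without a filter (1499 of all genes called) and with the replicate block (639). It was not called with RLE scaling, with at least 1 CPM in 2 libraries or in the fit of 4 libraries. Over the 12 alternatives the log2 fold change ranged from -0.92 to -0.52. The log2 fold change was -0.92 without knockdown replicate 1 and -0.57 without knockdown replicate 2. It was -0.52 without WT replicate 1 and -0.88 without WT replicate 2. The 38 expressed genes within 5 Mb of ATF7IP had a median of -0.17 in the knockdown, and 1 of these genes in 38, or 2.63%, had a lower value than ATF7IP. In CHD7 knockout and HERVH element deleted cells its log2 fold changes were -0.01 (-0.38 to 0.36) and -0.03 (-0.40 to 0.34).

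The levels of ATF7IP and SETDB1 can be set side by side per length. ATF7IP RPKM was 3.54 and 3.09 times SETDB1 RPKM in the WT libraries and 3.45 and 2.89 times in HERVH element deleted libraries. It was 1.85 and 2.09 times in CHD7 knockout libraries, where SETDB1 was high, and 2.15 and 2.03 times in HERVH knockdown libraries, where ATF7IP was low. The ratios of the last 2 conditions lay below those of the first 2 in every library. This restates the shifts already given for each gene, and no other pair of genes was compared. In CHD7 knockout cells the ratio also carries the change of the chromosome segment around SETDB1, which cannot be told apart from that of SETDB1.

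The HUSH subunits had smaller differences. TASOR (ENSG00000163946, chr3:56654160-56717293, - strand), the scaffold of the complex, had 136.2 and 129.6 CPM in WT, 119.2 and 133.4 CPM in CHD7 knockout, 127.6 and 92.3 CPM in HERVH knockdown and 151.9 and 148.3 CPM in HERVH element deleted cells. Both knockdown values were below WT and both values of HERVH element deleted cells above it, with log2 fold changes of -0.27 (-0.63 to 0.09; FDR = 0.398) and 0.18 (-0.18 to 0.53; FDR = 1 by edgeR). Without knockdown replicate 1 the knockdown value of TASOR was -0.58, and without knockdown replicate 2 it was -0.07.

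MPHOSPH8 (ENSG00000196199, chr13:20207799-20247581, + strand), the subunit that binds methylated histone H3, had 48.5 and 39.2 CPM in WT, 51.6 and 47.1 CPM in CHD7 knockout, 52.1 and 42.6 CPM in HERVH knockdown and 59.1 and 55.8 CPM in HERVH element deleted cells. Both values of HERVH element deleted cells were above WT, with a log2 fold change of 0.39 (0.01 to 0.77) and FDR = 1 by edgeR. PPHLN1 (ENSG00000134283, chr12:42632249-42853517, + strand), the periphilin subunit, had 59.9 and 60.9 CPM in WT, 73.9 and 67.9 CPM in CHD7 knockout, 69.9 and 55.1 CPM in HERVH knockdown and 71.6 and 70.6 CPM in HERVH element deleted cells. Its log2 fold changes were 0.23 in CHD7 knockout and 0.24 in HERVH element deleted cells, with intervals that included 0. PPHLN1 overlaps PRICKLE1 and ZCRB1 on the opposite strand, and TASOR overlaps CCDC66.

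MORC2 (ENSG00000133422, chr22:31321117-31364760, - strand), the ATPase that acts with HUSH, had 129.9 and 139.8 CPM in WT, 163.3 and 165.7 CPM in CHD7 knockout, 160.8 and 147.3 CPM in HERVH knockdown and 140.3 and 154.5 CPM in HERVH element deleted cells. The WT libraries were the lowest of the 8. Its log2 fold changes were 0.29 (-0.02 to 0.59) in CHD7 knockout, 0.19 (-0.11 to 0.50) in HERVH knockdown and 0.13 (-0.18 to 0.43) in HERVH element deleted cells, and none passed the test (FDR = 0.506, 0.493 and 1 by edgeR). An antisense gene, MORC2-AS1, overlaps it.

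EHMT2 (ENSG00000204371, chr6:31847536-31865475, - strand), which dimethylates the same lysine and is also called G9a, had 189.1 and 212.7 CPM in WT, 236.7 and 198.8 CPM in CHD7 knockout, 188.3 and 236.9 CPM in HERVH knockdown and 183.1 and 193.9 CPM in HERVH element deleted cells. Each condition overlapped WT. Its log2 fold changes against WT were 0.12 (-0.23 to 0.46), 0.08 (-0.26 to 0.42) and -0.09 (-0.43 to 0.25) in this order, and the last 2 had the opposite sign under the GC correction (-0.01 and 0.02).

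DNMT1 (ENSG00000130816, chr19:10244018-10341962, - strand), the maintenance DNA methyltransferase, had 366.2 and 390.0 CPM in WT, 406.9 and 345.5 CPM in CHD7 knockout, 384.9 and 403.8 CPM in HERVH knockdown and 382.0 and 413.1 CPM in HERVH element deleted cells. Each condition overlapped WT here as well. Its log2 fold changes of -0.01 (-0.31 to 0.30), 0.06 (-0.24 to 0.36) and 0.07 (-0.23 to 0.38) had the narrowest intervals of the 9 genes, and the first changed sign under RLE scaling (0.0037) and the GC correction (0.05). DNMT1 overlaps S1PR2 on the same strand.

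**Figure D4:**
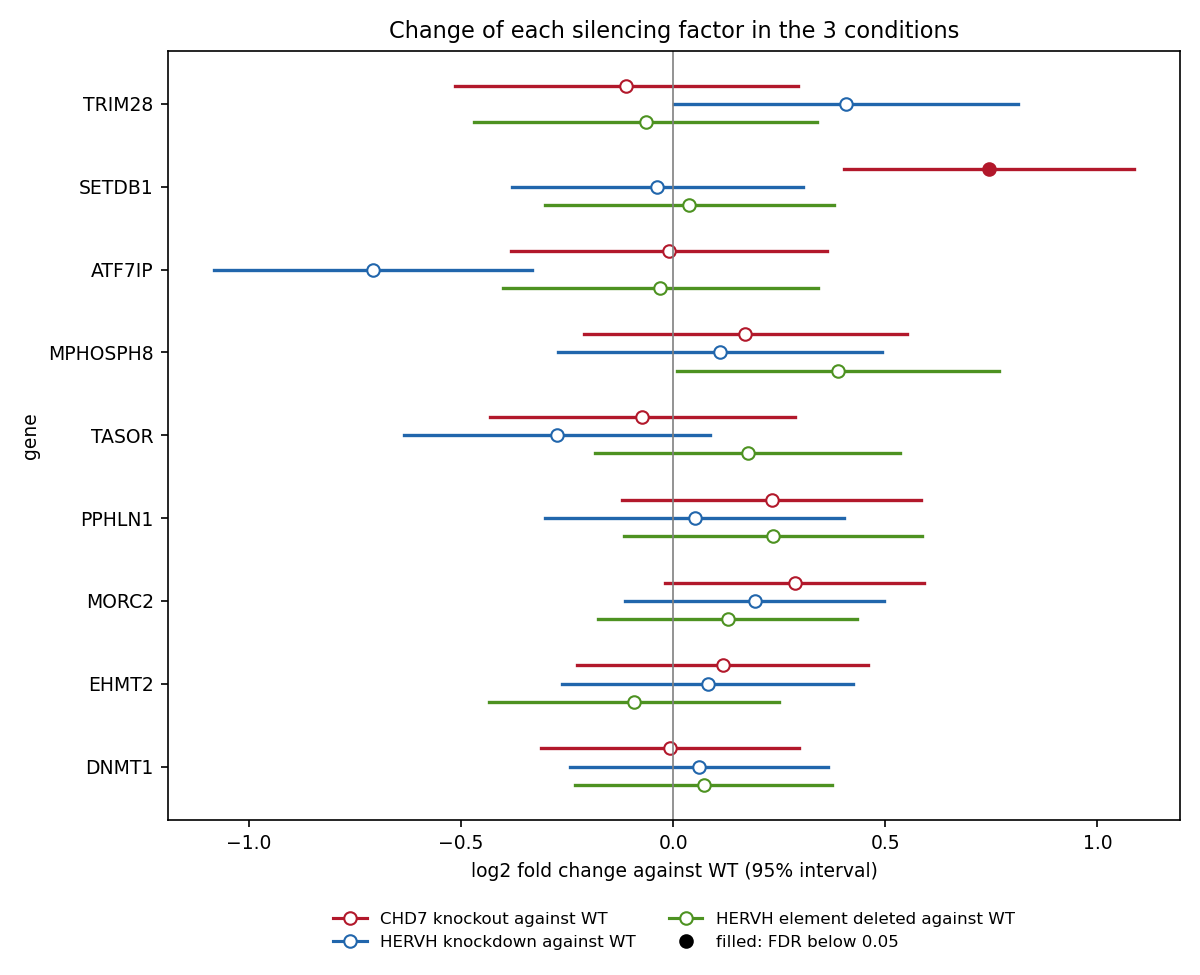
Log2 fold change against WT (x axis) of the 9 silencing factors (y axis), coloured by condition, with lines for the 95% interval from the joint edgeR fit and a filled point where FDR was below 0.05. SETDB1 in CHD7 knockout cells (0.74) is the single filled point, and ATF7IP in the knockdown (-0.71) has an interval away from 0 and FDR = 0.0526.

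The 3 comparisons with WT use the same WT libraries, so their values are not independent of each other. Over the 9 genes the median log2 fold change was 0.12 in CHD7 knockout cells (-0.01 over all genes tested), 0.06 in the knockdown (0.04) and 0.07 after deletion of the HERVH element (-0.02). In CHD7 knockout cells, 3 of the 9 genes lay above WT without overlap (21.5% of all genes) and 0 below it (22.4%). At an unadjusted p below 0.05 the count was 1 of 9 genes, SETDB1, beside 10.9% of all genes.

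In HERVH knockdown cells, edgeR called 0 of the 9 genes at an FDR below 0.05, where 2.15% of all genes tested were called. DESeq2 called 1, ATF7IP, beside 1260 of all genes. In edgeR 2 genes, ATF7IP and TRIM28, had an unadjusted p below 0.05, as 19% of all genes did. Without overlap with WT, 1 gene (MORC2) was above it and 2 (ATF7IP and TASOR) were below it, beside 22.5% and 22.3% of all genes. Of all genes called in the knockdown 28.8% were higher, and 44.0% were higher under the GC correction.

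In HERVH element deleted cells, 0 of the 9 genes were called by edgeR and 0 by DESeq2. Of all genes tested edgeR called 0.0724%, 17 genes that were all lower, and DESeq2 called 20 genes. The 1 gene with an unadjusted p below 0.05 was MPHOSPH8, beside 2.63% of all genes. Without overlap with WT, 4 genes were higher (MPHOSPH8, TASOR, PPHLN1 and MORC2) and 0 lower, where 17.7% and 20.3% of all genes were.

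Direct comparisons of the conditions tested whether a factor differed between them. SETDB1 was lower in HERVH knockdown than in CHD7 knockout cells, with a log2 fold change of -0.78 (SE 0.160, FDR = 0.00894 by edgeR), and so was ATF7IP, with -0.70 (SE 0.174, FDR = 0.0247). These were 2 of 9 genes called lower, where 5.65% of all genes tested were. SETDB1 was higher in CHD7 knockout than in HERVH element deleted cells, with 0.71 (SE 0.159, FDR = 0.0284 by edgeR), the 1 gene of 9 called higher, beside 1.98% of all genes. Both SETDB1 differences rest on the same CHD7 knockout libraries. In these, the change of SETDB1 cannot be told apart from that of the chromosome segment around it. The calls against the knockdown were lost without either CHD7 knockout replicate and in the fit of 4 libraries, and the call against the deletion was lost with any 1 of the 4 libraries compared left out. Between the knockdown and the deletion edgeR called 0 of the 9 genes, beside 1.33% of all genes. DESeq2 called 1, ATF7IP, and the share of all genes that DESeq2 called there is not given here. In that comparison 3 of the 9 genes had an unadjusted p below 0.05, namely TRIM28 (log2 fold change 0.47, FDR = 0.203), TASOR (-0.45, FDR = 0.177) and ATF7IP (-0.68, FDR = 0.0708), beside 19.1% of all genes. None of the 9 genes met the study's thresholds for a differentially expressed gene, an FDR below 0.01 with at least a 2-fold change, in any of the 6 comparisons. These thresholds were applied here to the joint edgeR fit, so the shares that follow are not those of the study. The paper reports more such genes after knockdown and after deletion than this fit called. Against WT the share of all genes was 0.571% in CHD7 knockout, 0.217% in HERVH knockdown and 0.0298% in HERVH element deleted cells. It was 2.66% between knockdown and CHD7 knockout, 0.204% between knockdown and deletion, and 1.12% between CHD7 knockout and deletion.

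Another 60 genes of the silencing pathways were found in the counts, and 56 of them were tested. They comprise partners of TRIM28, associates of HUSH and SETDB1, other methyltransferases and demethylases of histone H3 lysine 9, writers, readers and erasers of DNA methylation, histone chaperones and KRAB zinc finger proteins with retroelement targets. In CHD7 knockout cells 1 of the 56 genes rose and 0 fell, beside 1.19% and 0.613% of all genes tested, with a median of 0.02 on the log2 scale against -0.01 over all genes. CHD3, a remodeler subunit of the NuRD complex that TRIM28 recruits, rose from 76.0 and 73.0 CPM in WT to 115.4 and 125.5 CPM (log2 fold change 0.69, FDR = 0.0460 by edgeR). CHD4, of the same list and named after its values were seen, had 657.8 and 612.3 CPM against 637.4 and 628.7 CPM in WT (0.0047). CHD3 was also the single gene of the 56 that DESeq2 called in this comparison, beside 728 of all genes. ATF7IP2, the paralog of ATF7IP, had 18.4 and 22.5 CPM there against 29.8 and 28.6 CPM in WT (-0.52, FDR = 0.325).

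In HERVH knockdown cells 0 of the 56 genes were called by edgeR, where 2.15% of all genes were. DESeq2 called 1 of the 56, DNMT3A, beside 1260 of all genes. An unadjusted p below 0.05 was found for 8 of the 56, a smaller share than the 19% of all genes, and of the 8 genes 5 had higher and 3 lower values than in WT. DNMT3A, a methyltransferase that places new DNA methylation, had 245.5 and 273.8 CPM against 157.0 and 187.0 CPM in WT (log2 fold change 0.59, FDR = 0.0550 by edgeR). MBD2, a reader of methylated DNA, had 23.4 and 12.7 CPM against 31.8 and 27.2 CPM (-0.70, FDR = 0.156). TET2, which oxidizes methylated cytosine, had 15.6 and 8.96 CPM against 20.3 and 19.2 CPM (-0.68, FDR = 0.165), and TDG, the glycosylase that removes the oxidized base, had 124.6 and 94.0 CPM against 73.3 and 84.1 CPM (0.47, FDR = 0.232). ATRX, the remodeler that places histone H3.3 at repeats with DAXX, had 184.1 and 129.0 CPM against 261.5 and 208.0 CPM (-0.58, FDR = 0.113), and DAXX had 122.6 and 131.5 CPM against 93.8 and 102.3 CPM (0.37, FDR = 0.194). WIZ, a partner of EHMT2, had 79.8 and 109.0 CPM against 59.4 and 79.5 CPM (0.44, FDR = 0.232). The last of the 8 genes, DNMT3B, was named after its values were seen and had a log2 fold change of 0.46 (FDR = 0.154). The median of the 56 genes in the knockdown was -0.02, against 0.04 over all genes.

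In HERVH element deleted cells 0 of the 56 genes were called by edgeR or DESeq2 and 0 had an unadjusted p below 0.05. Of all genes edgeR called 0.0724%, 2.63% had such a p in edgeR, and DESeq2 called 20 genes. The median of the 56 was 0.05, against -0.02 over all genes. Of the 56 genes, CHD3 (log2 fold change -1.04, FDR = 0.00199) and ATRX (-0.90, FDR = 0.00844) were lower in HERVH knockdown than in CHD7 knockout cells by edgeR, a smaller share than the 5.65% of all genes called lower.

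The genes with the most similar pattern of log2 CPM over the 8 libraries were found among 12703 genes. TRIM28 was matched most closely by NACC1, PEPD and SLC38A10 (Pearson's r = 0.997, 0.995 and 0.994). SETDB1 was matched by TIPRL, WDR26 and LINC01487 (r = 0.992, 0.991 and 0.991), of which TIPRL and WDR26 also lie on chromosome 1. These are the highest of many correlations over 8 libraries, in which all genes of a library have its depth and its GC content effect in common, and they are given as a description.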

How the data were processed

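RNA-seq of 8 libraries was used, in 4 groups taken from the sample labels. The authors mapped rRNA-depleted, strand-specific libraries to hg19 with STAR and counted reads per Ensembl gene with HTSeq. Tool versions and the strand setting of the counting are not given in the sources used here. The deposited values are raw read counts for 57773 genes. The 5 summary rows were left out of library sizes and tests: 34.9% to 42.5% of the reads assessed fell on no gene and 3.81% to 4.75% were ambiguous. The genes and gene lists were chosen with earlier results of these data known.

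Counts were analysed with R 4.3.3 and edgeR 4.0.16 (limma 3.58.1): TMM scaling, filterByExpr, and quasi-likelihood tests in 1 joint model of the 8 libraries by group, with 4 residual degrees of freedom. A gene was called where FDR (Benjamini-Hochberg, 23474 genes) was below 0.05. The SE is the absolute log2 fold change divided by the square root of the F statistic. log2 CPM used a prior count of 2, and RPKM used union exon length. Expressed neighbours had a mean log2 CPM above 2. All 9 genes of the set are described, from each other list called genes (up to 4 per comparison) or otherwise up to 2 with the largest change, and ATF7IP2, WIZ, TDG and DAXX come under the latter. Positions, lengths and GC content came from GENCODE v44 on GRCh37 (96.1% of genes placed). The authors counted reads on a different annotation, from Ensembl, so the lengths used for RPKM may differ from those of the exons counted. What this does to the order of levels was not tested. GapmeR sequences came from the study's oligonucleotide list and were searched on GRCh37 with up to 2 mismatches in Python 3.11.15. Alternatives were RLE scaling, DESeq2 1.42.0, other filters, a replicate block, a loess GC correction (span 0.3), fits of 4 libraries, a fold limit and each replicate left out. An unadjusted p, a crossed pairing, a block in 4 libraries and the median of SETDB1's neighbours taken off were chosen after seeing the data. The scripts were tested on simulated data. With 2 replicates in a group, no test for outlying samples was run.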

Additional observations from a re-analysis of the deposited data

How the results depend on the processing

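SETDB1 in CHD7 knockout cells kept its direction in all 12 alternatives and stood 0.20 above the median of its neighbours. Counts of the 9 genes called against WT moved as follows. In CHD7 knockout (1 gene) the count was 0 under an FDR below 0.01 with 2-fold, and 0 to 0 with a replicate left out. In HERVH knockdown (0 genes) it was 2 by unadjusted p, 1 without a filter, with the GC correction and by DESeq2, and 0 to 3 with a replicate left out; in HERVH element deleted cells it was 1 by unadjusted p. For HERVH knockdown against CHD7 knockout (2 genes) it was 0 under the fold limit and in the fit of 4 libraries, and 0 to 5 with a replicate left out; for HERVH knockdown against HERVH element deleted (0 genes) it was 1 without a filter, with the GC correction and by DESeq2, and 0 to 3; for CHD7 knockout against HERVH element deleted (1 gene) it was 0 under the fold limit and 0 with a replicate left out. With longest transcripts, 3 of 9 WT ranks were kept.

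Over all genes, calls in CHD7 knockout (424) became 854 without a filter, 1033 with the GC correction, 728 by DESeq2, 1285 in the fit of 4 libraries and 82 to 124 with a replicate left out. Calls in HERVH knockdown (504) became 1499, 2048, 1260, 57 and 4 to 4084 in the same order, the highest without knockdown replicate 1. Calls in HERVH element deleted cells (17) became 43 without a filter and 6 to 8 with a replicate left out.

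The replicate numbers are shared by the groups without a stated pairing. Deviations of same-numbered samples from their group means correlated at -0.06, 0.05 and 0.12 between WT and, in turn, CHD7 knockout, knockdown and deletion over all genes tested, and at -0.23, 0.29 and 0.43 over the 12704 more highly expressed genes (mean log2 CPM over 2). With the replicate block, with or without the GC correction, 1 of the 9 genes (ATF7IP) was called in HERVH knockdown against WT and 1 in HERVH knockdown against HERVH element deleted cells. With the block and the GC correction, 971 genes were called in CHD7 knockout and 1916 in HERVH knockdown. In fits of 4 libraries, a crossed pairing gave 1887 calls in CHD7 knockout and the labelled pairing 717.

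Signs that changed were all of values that did not pass the test. With the GC correction, and with it and the block, the log2 fold change of TRIM28 was 0.0678 and 0.0668 in CHD7 knockout and 0.0960 and 0.0962 in HERVH element deleted cells, that of EHMT2 was -0.0111 and -0.0124 in HERVH knockdown and 0.0210 and 0.0205 in HERVH element deleted cells, and that of DNMT1 in CHD7 knockout was 0.0475 and 0.0442. DNMT1 there was 0.0037 with RLE scaling and with DESeq2, 0.0009 without a filter and 0.0129 with at least 1 CPM in 2 libraries, and -0.0033 in HERVH knockdown with the block and the GC correction. ATF7IP in CHD7 knockout was 0.0099 with at least 1 CPM in 2 libraries and 0.0082 with the block.

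With a replicate left out, log2 fold changes in CHD7 knockout ranged from -0.2076 to 0.0172 for TRIM28, -0.1350 to 0.0126 for TASOR, -0.1809 to 0.2077 for ATF7IP, -0.1223 to 0.1285 for DNMT1 and -0.0069 to 0.2597 for EHMT2. In HERVH knockdown they ranged from -0.2019 to 0.0580 for SETDB1, -0.0946 to 0.2727 for MPHOSPH8, -0.1844 to 0.2040 for PPHLN1 and -0.1004 to 0.1872 for EHMT2. In HERVH element deleted cells they ranged from -0.1601 to 0.0673 for TRIM28, -0.0401 to 0.1465 for SETDB1 and -0.1972 to 0.1841 for ATF7IP. The cause of these moves was not tested.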
